A study of Mus musculus with 6 samples.

Results

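Notch receptors, their ligands and the Hey and Hes repressors that Notch switches on were followed in mouse hearts that overexpress the miR-302-367 microRNA cluster. The 10 genes are the receptors Notch1, Notch2, Notch3 and Notch4, the ligands Jag1 and Dll4, and the effectors Hey1, Hey2, Heyl and Hes1. They were taken by name from the 22180 genes that the array measured with a probe of their own, and each of the 10 had exactly 1 such probe. The transgenic hearts had the genotype Nkx2.5-Cre; R26R-miR302-367, in which Cre recombinase, expressed from the Nkx2.5 driver of cardiac progenitors and their descendants, switches on the cluster from the Rosa26 locus. The control hearts carried Nkx2.5-Cre alone, so both groups carry the Cre, and both were on a mixed C57BL/6 x 129S6 background. Each group held 3 samples of whole-heart RNA. The source name and harvest protocol place the hearts at postnatal day 14, while the age field reads E14, and the labels do not settle this. Nothing in the labels says that the samples came from separate animals. The sex read from Xist and Y-linked genes differed between arrays of the same group, so these did not all come from the same animal. Whether each sample was its own animal is not stated, so the spread behind each p-value may be partly technical.

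In Notch signalling, a ligand on a neighbouring cell binds the receptor, proteases of the ADAM and gamma-secretase families cut it, and the freed intracellular part joins the DNA-binding protein Rbpj to activate target genes. Among the best known targets are the Hey and Hes genes, which encode basic helix-loop-helix repressors. In the heart, Notch1, Notch4, Dll4 and Hey1 are used by endothelium and endocardium, Notch3 and Heyl by smooth muscle cells and pericytes, and Hey2 by the compact ventricular myocardium and by arteries.

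The microRNAs that separate the groups are shown because they are the agent of the experiment, with the seed, bases 2 to 8 of the mature strand, in capitals. The sequences are RefSeq's, on the plus strand of GRCm38.p6, from chr3:127545275-127545297 for the first to chr3:127545779-127545800 for the last.
miR-302b-3p: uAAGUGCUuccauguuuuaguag
miR-302c-3p: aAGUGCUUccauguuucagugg
miR-302d-3p: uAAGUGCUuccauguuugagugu
miR-367-3p: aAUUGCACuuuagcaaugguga
The entries for miR-302b and miR-302d share the seed AAGUGCU, and miR-367 has AUUGCAC. The miR-302c entry begins with the same letters AAGUGCU, so its bases 2 to 8 read AGUGCUU. Mir302a, whose probe rose by 6.32, also belongs to the cluster, but its mature sequence is not shown. Of the cluster genes, all 5 had probe values without overlap, the transgenic hearts being the higher, with log2 fold changes from 2.99 for Mir302b to 6.61 for Mir302c. Mature strands were not measured on these arrays.

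The region just upstream of Hey2 is shown because Hey2 changed most among the 10 genes, and that of Dll4 because it was the ligand that passed the test. Of the 10 genes, 7 had a promoter entry in RefSeq (GRCm38.p6), and the 250 bases before the annotated start were searched on both strands. The motifs were GTGGGAA, which Rbpj binds, and CACGTG and CACGCG, which Hey and Hes proteins bind. Capitals mark any of these. The Hey2 stretch is chr10:30842784-30843033 on the minus strand, and the Dll4 stretch is chr2:119325534-119325783 on the plus strand.
Hey2: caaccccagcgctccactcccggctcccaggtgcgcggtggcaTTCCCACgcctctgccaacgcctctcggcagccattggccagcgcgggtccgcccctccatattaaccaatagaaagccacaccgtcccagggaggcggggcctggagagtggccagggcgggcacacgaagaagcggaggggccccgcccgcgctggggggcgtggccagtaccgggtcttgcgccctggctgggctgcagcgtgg
Dll4: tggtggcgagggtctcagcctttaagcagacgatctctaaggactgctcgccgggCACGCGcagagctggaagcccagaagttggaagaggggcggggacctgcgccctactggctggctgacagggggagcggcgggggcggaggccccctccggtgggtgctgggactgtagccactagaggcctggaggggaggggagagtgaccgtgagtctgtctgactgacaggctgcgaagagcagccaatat
In Hey2 the marked letters are an Rbpj motif read on the opposite strand, starting 207 bases before the gene's start. A second GTGGGAA, on the gene's own strand, begins 4 bases before the start and runs across it. None of the other 6 searched genes had a GTGGGAA in the 250 bases, and 5.42% of 32851 RefSeq promoter entries had at least 1. With the 50 bases after the start included, 0.26% of the entries had at least 2, as Hey2 did. This longer window was searched for GTGGGAA only, and within the 250 bases Hey2 held 1. The marked letters in Dll4 are a CACGCG, which Jag1 and Notch2 also held and which 7.62% of the entries held. Jag1 held 2, starting 249 and 171 bases before its start, and 1.27% of the entries held at least 2. CACGTG was in none of the 7 and in 6.02% of the entries. These are matches of letters only.

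Hey2 rose in transgenic hearts while Hey1 and Dll4 fell and Notch2 rose slightly, so the 10 genes did not move together. The values are deposited log2 expression values, and each change is the transgenic mean minus the control mean, as a log2 value, from a limma fit over all 22180 genes. With Benjamini-Hochberg adjustment over all of them, 4 of the 10 genes passed an adjusted p of 0.05, 2 higher and 2 lower. Over all genes 11.1% passed, 5.35% higher and 5.76% lower. At an unadjusted p under 0.05 there were 7 of the 10, against 5633 of all 22180. With the dimmest genes, a share of 0.333, left out, 6 of the 10 passed the adjusted test, against 3019 of the 14787 genes kept. For 8 of the 10 genes the transgenic and control values did not overlap, Heyl and Hes1 being the exceptions, against 30.9% of all genes. The median change of the 10 genes was -0.26, against -0.03 over all genes tested. The split between higher and lower depends on the scaling. With renewed quantile normalization 1 of the 10 was higher and 4 lower, and with each array centred on its median 1 was higher and 2 lower. Over all genes the split was 1187 higher and 1278 lower, against 1023 and 1789 with quantile normalization and 894 and 1453 with centred arrays.

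**Figure D1:**
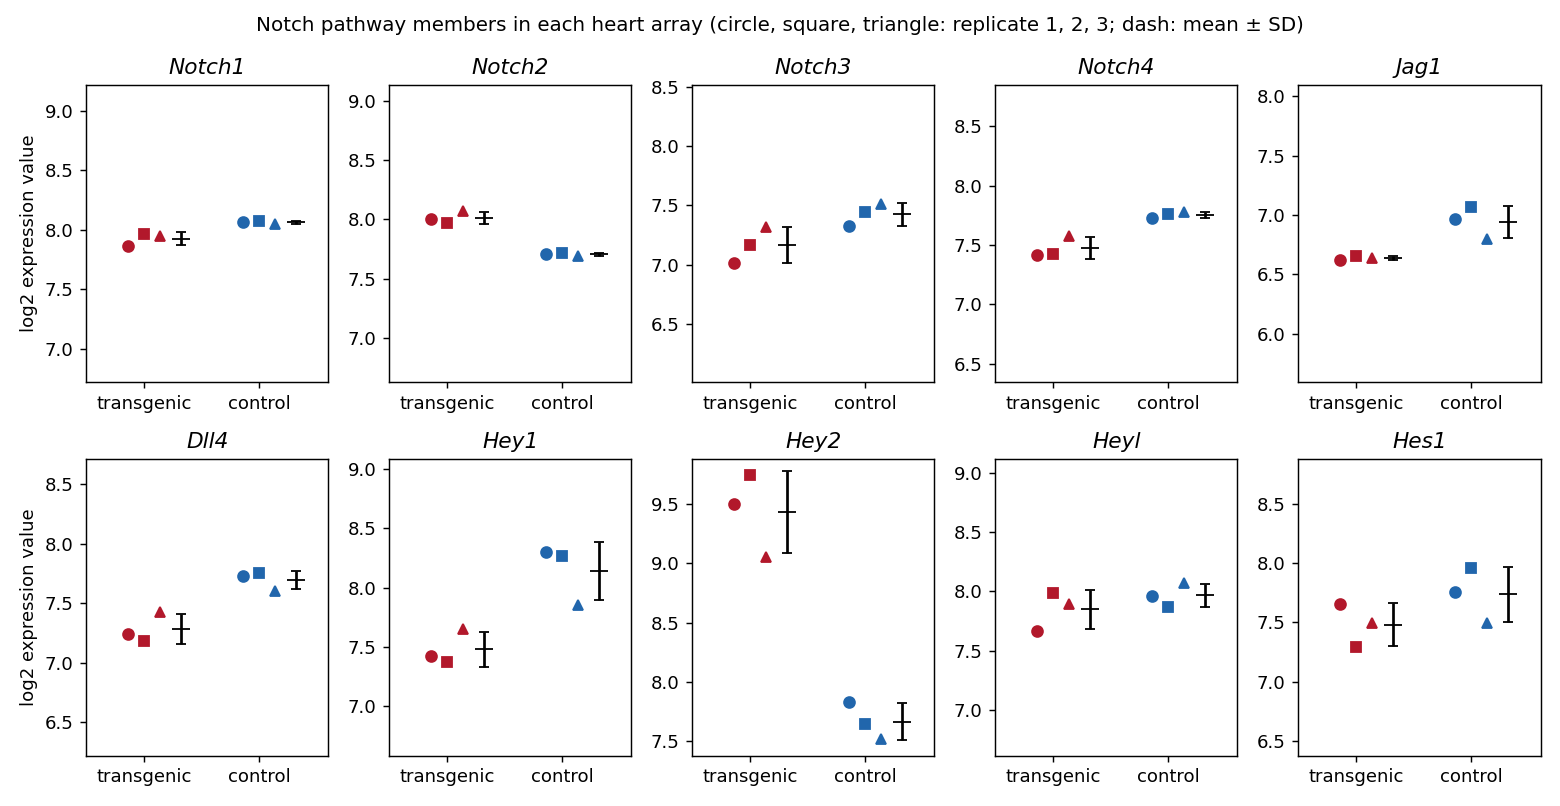
Log2 expression value (y axis, 2.5 units tall in every panel) of the 10 Notch pathway genes in each array, with transgenic hearts in red and control hearts in blue. Symbols are replicates and the dash with bars is the mean ± SD of 3. Hey2 lies between 9.05 and 9.74 in transgenic hearts, above the control hearts at 7.52 to 7.83, while Heyl and Hes1 overlap between the groups.

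Of the receptors, Notch2, which acts in smooth muscle and cushion development, had log2 values of 8.00, 7.97 and 8.07 in transgenic hearts 1, 2 and 3, against 7.71, 7.72 and 7.69 in control hearts 1, 2 and 3. All transgenic values lay above all control values, and both groups were tight. Notch2 rose by 0.31 with an SE of 0.080 (limma adjusted p = 0.04282), a 1.24-fold difference. This call was close to the threshold. It was lost whichever array was left out, at adjusted p-values of 0.111, 0.0844 and 0.0712 for controls 1, 2 and 3 and of 0.115, 0.103 and 0.131 for transgenic hearts 1, 2 and 3.

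The other receptors had negative changes that did not pass the test. Notch4, an endothelial receptor, had 7.42, 7.42 and 7.58 in transgenic hearts, against 7.73, 7.76 and 7.78 in control hearts. The groups did not overlap, and the change was -0.28 with a 95% interval of -0.48 to -0.09 (limma adjusted p = 0.0698). It passed with the dimmest genes, a share of 0.333, left out (0.041), with quantile normalization (0.0419) and with an intensity trend and robust variance (0.0458).
Notch3, the receptor of vascular smooth muscle, had 7.01, 7.17 and 7.32 in transgenic hearts, against 7.32, 7.44 and 7.52 in control hearts. The highest transgenic value was just below the lowest control value. The change was -0.26 (interval -0.50 to -0.02, limma adjusted p = 0.161).
Notch1, the main receptor of endocardium and endothelium, had 7.86, 7.97 and 7.95 in transgenic hearts, against 8.06, 8.08 and 8.05 in control hearts. Its change of -0.14 was the smallest in size among the receptors, with an interval of -0.32 to 0.05 (limma adjusted p = 0.3419).

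For both ligands the transgenic hearts had lower values than all control hearts. Dll4, the ligand of arterial and sprouting endothelium, had 7.24, 7.18 and 7.43 in transgenic hearts, against 7.73, 7.75 and 7.61 in control hearts. Transgenic 3 was the nearest to the control hearts. Dll4 fell by 0.41 on the log2 scale, with an SE of 0.097 (limma adjusted p = 0.02897), so that control hearts had 1.33 times the transgenic level. Leaving out 1 array ended the call for control 1 (0.0924), control 2 (0.0751), transgenic 1 (0.103) and transgenic 2 (0.112).
Jag1, a ligand of endothelium and smooth muscle that is needed for outflow tract development, had 6.62, 6.65 and 6.63 in transgenic hearts, against 6.96, 7.06 and 6.80 in control hearts. The transgenic values lay within a narrow band below the more scattered control values. The change was -0.30 (interval -0.52 to -0.09, limma adjusted p = 0.07423). Jag1 passed without control 3 (0.034), with array weights (0.0318), with quantile normalization (0.0208) and with the dimmest genes left out (0.0456).

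The effectors went in opposite directions. Hey2, the repressor of the compact ventricular myocardium, had 9.50, 9.74 and 9.05 in transgenic hearts, against 7.83, 7.65 and 7.52 in control hearts. Every transgenic value exceeded every control value by more than 1 log2 unit, and transgenic 3 was the lowest of its group. Hey2 rose by 1.77 with an SE of 0.17 (interval 1.39 to 2.15, limma adjusted p = 0.0005417), a 3.40-fold difference. It passed in all 15 alternative analyses, with changes from 1.61 to 1.95 and adjusted p-values of at most 0.00462.
Hey1, the related repressor of endothelium, endocardium and atrium, had 7.43, 7.37 and 7.65 in transgenic hearts, against 8.30, 8.26 and 7.85 in control hearts. The groups came closest at transgenic 3 and control 3. Hey1 fell by 0.66 on the log2 scale, with an SE of 0.14 (limma adjusted p = 0.0174), so that control hearts had 1.58 times the transgenic level. This call, too, ended when control 1 (0.0649), control 2 (0.052), transgenic 1 (0.0697) or transgenic 2 (0.0743) was left out.

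Heyl and Hes1 did not pass, and their groups overlapped. Heyl, the Hey family member of smooth muscle, had 7.67, 7.99 and 7.90 in transgenic hearts, against 7.96, 7.87 and 8.07 in control hearts (change -0.12, interval -0.36 to 0.13, limma adjusted p = 0.5581). Hes1, a Notch target in many cell types, had 7.65, 7.30 and 7.49 in transgenic hearts, against 7.75, 7.96 and 7.50 in control hearts. Its spread between replicates was nearly as large as its change of -0.26 (interval -0.57 to 0.06, limma adjusted p = 0.2951).

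**Figure D2:**
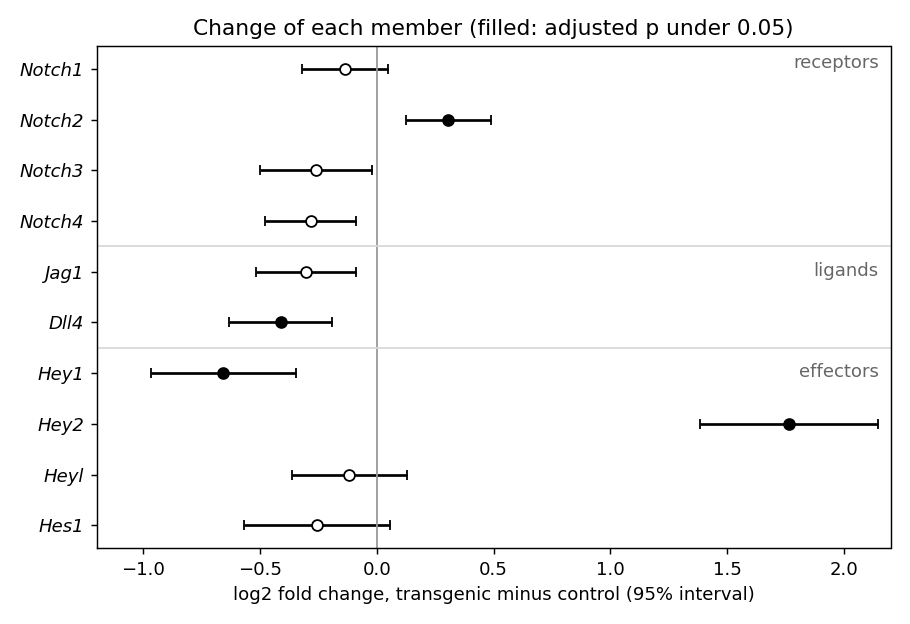
Log2 fold change, transgenic minus control (x axis), with its 95% interval from limma for the 10 genes (y axis), grouped as receptors, ligands and effectors. Filled points passed an adjusted p of 0.05. Hey2 at 1.77 stands to the right, Notch2 at 0.31 is the only other positive gene, and Hey1 at -0.66 and Dll4 at -0.41 are the filled points on the left.

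The change of Hey2 was set against that of each other effector within the same array, which removes any shift shared by the whole array. Hey2 minus Hey1 was higher in transgenic than in control hearts by 2.42, Hey2 minus Hes1 by 2.02 and Hey2 minus Heyl by 1.88 on the log2 scale. In all 3 pairs the transgenic and control arrays did not overlap. Each had an exact two-sided permutation p of 0.1, the smallest that 3 against 3 arrays can give, and 0.1 after adjustment over the 3 pairs, so this test cannot reach 0.05.

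Because many of these genes are known from vessel cells, marker lists of the cell types in the heart are given beside them. The 8 cardiomyocyte markers, among them Myh6 and Tnnt2, had mean log2 values of 12.10 to 12.13 in transgenic hearts and 12.07 to 12.12 in control hearts. None of the 8 passed the test in limma, and 1, Myl2, had an unadjusted p under 0.05. The mean joins changes of both signs. In 4 of the 8 the groups did not overlap, against 30.9% of all genes. Of these, Myl2 had 0.24, while Actc1 had -0.11, Tnni3 -0.11 and Myh6 -0.09. Of 22 endothelial markers, all had negative changes, 12 fell and 0 rose, with a median of -0.39. Their mean ranged from 8.76 to 8.90 in transgenic hearts and from 9.13 to 9.24 in control hearts. Over all genes 5.76% fell and 5.35% rose, and 12567 had negative and 9613 positive changes, shares that also belong beside the marker lists below. With the dimmest genes, a share of 0.333, left out, 14 of the 22 fell, against 1507 of the 14787 genes kept. Ly6c1, a surface protein of capillaries, fell by 1.23, Ptprb, an endothelial phosphatase, fell by 0.51, Pecam1, the adhesion molecule CD31, fell by 0.50, and Tie1, an endothelial receptor kinase, fell by 0.49. Leaving out single arrays took the count of 12 to 3 (control 1), 6 (control 2), 3 (transgenic 1), 3 (transgenic 2) and 7 (transgenic 3). Of the markers named here, Tie1 lost its call without control 1, transgenic 1 or transgenic 2 (adjusted p up to 0.0632). In whole-heart RNA, fewer cells of a type and less RNA per cell cannot be told apart.

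Arterial markers apart from Dll4 and Hey1 gave a mixed picture. Efnb2, the arterial ephrin that is also a Notch target, fell by 0.48 and Sox17, an arterial transcription factor, fell by 0.61, while the other 7 of the 9 did not pass and the median was -0.22. Efnb2 no longer passed when either of controls 1 and 2 or of transgenic hearts 1 and 2 was left out, with an adjusted p of up to 0.0818, and the Sox17 call without each array other than control 2, with up to 0.1. Gja4, a gap junction protein, had -0.32 (limma adjusted p = 0.0795) and Bmx, a kinase of arterial endothelium, had -0.26 (0.115). The changes of 3 of the 9 were positive, 0.18 for Gja5, a gap junction protein (0.5751), 0.17 for Vegfc, a vascular growth factor (0.523), and 0.13 for Nrp1, a co-receptor for such factors (0.4114). The groups overlapped for Gja5 and Vegfc and did not for Nrp1. None of 7 venous and endocardial markers passed in limma, although all 7 had negative changes and 2, Nfatc1 and Nr2f2, had an unadjusted p under 0.05.

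Among 14 smooth muscle and pericyte markers, 7 fell and 0 rose, with a median of -0.28, and 11 had negative and 3 positive changes. Vtn, vitronectin, fell by 1.18, Kcnj8, a pericyte potassium channel subunit, fell by 0.68, Rgs5, a pericyte regulator of G-protein signalling, fell by 0.65, and Acta2, smooth muscle actin, fell by 0.52. The smooth muscle genes Tagln, with -0.19 (limma adjusted p = 0.3274), Lmod1, with -0.13 (0.4772), and Myh11, with -0.08 (0.6791), were not called. Neither was Abcc9, with -0.07 (0.6929). The positive changes, none of them called, were those of Cspg4, a pericyte proteoglycan, with 0.33 (limma adjusted p = 0.06064), Smtn, the smooth muscle protein smoothelin, with 0.24 (0.1618), and Mcam, an adhesion molecule, with 0.17 (0.2695). In all 3 the groups did not overlap, which held for 30.9% of all genes. A list member was called higher, 1 in each case, with the dimmest genes left out, with an intensity trend and robust variance, with array weights and without control 3. The mean of the list was 8.34 to 8.54 in transgenic hearts and 8.75 to 8.76 in control hearts. The count of 7 became 4 when control 1 was left out and 3 for transgenic 1 or transgenic 3, the 2 arrays without which Acta2 was no longer called (adjusted p up to 0.0883). With a sex term in the model it was 4. Macrophage markers also fell, 4 of 6 with 0 higher, led by C1qb, a complement subunit (-0.96), and Csf1r, a growth factor receptor (-0.94). Of 8 fibroblast markers 1 rose, Postn, the matrix protein periostin, by 0.33, and that call was lost whichever array was left out (adjusted p from 0.0682 to 0.159) and with quantile normalization or centred arrays.

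Set against the mean of the endothelial markers in the same array, the endothelial genes of the Notch group had changes between -0.28 and 0.24. The Dll4 change relative to that mean was -0.04, with overlapping groups (exact permutation p = 0.7). It was 0.09 for Notch4 (exact permutation p = 0.2) and 0.07 for Jag1 (exact permutation p = 0.3), both with overlapping groups. Hey1 remained lower by 0.28, with groups that overlapped (exact permutation p = 0.2). Notch1 was higher relative to the markers by 0.24, and its groups did not overlap (exact permutation p = 0.1).
Against the smooth muscle and pericyte mean, Notch3 had 0.04 (exact permutation p = 0.5) and Heyl 0.19 without overlap (exact permutation p = 0.1). With the median of the marker levels of each array in place of their mean, these became 0.28 for Notch3 and 0.42 for Heyl. Such a median can rest on different markers in different arrays. Hey2 was higher by 1.75 relative to the cardiomyocyte mean, also without overlap (exact permutation p = 0.1). The tests were two-sided, and adjusted over the 8 comparisons the smallest p was 0.2667. The sign of the smallest differences turned with 1 array left out, to 0.0072 for Dll4 without transgenic 2 and to -0.0085 for Notch3 without control 1. The part of cell numbers in the changes of the Notch genes was not tested beyond these differences.

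**Figure D3:**
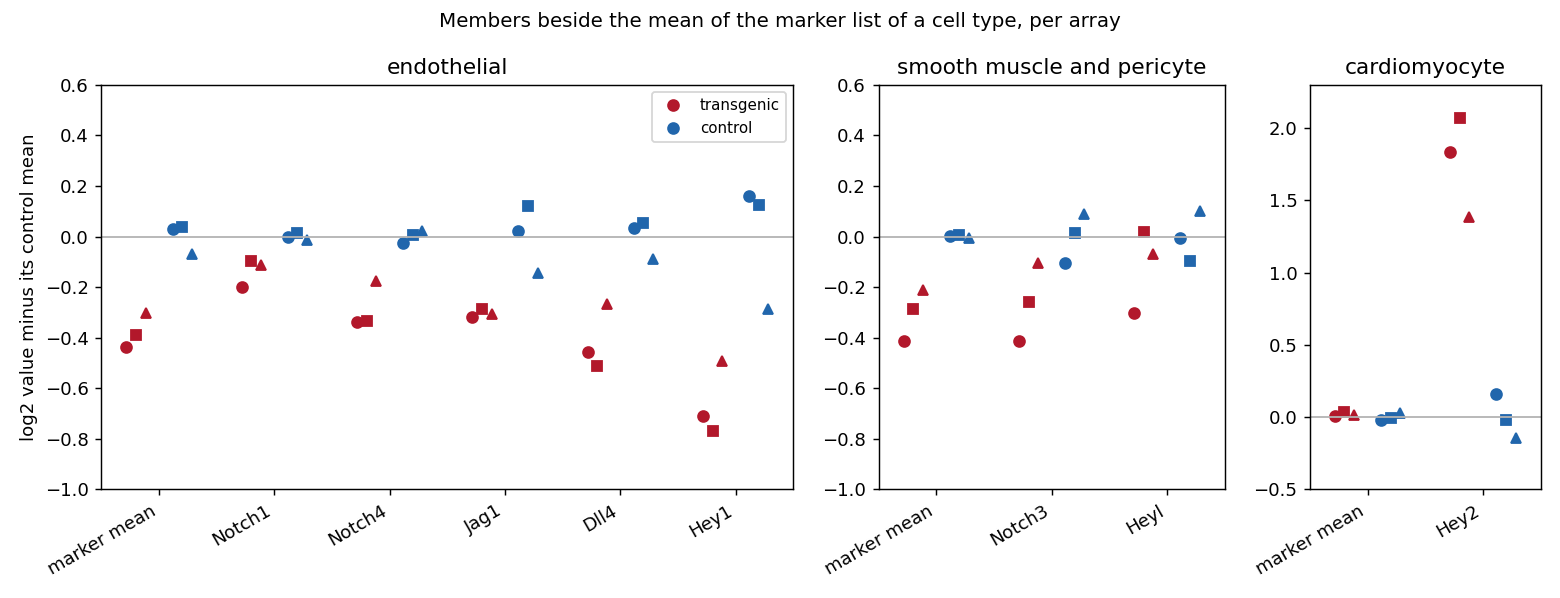
Log2 value minus its own control mean (y axis) in each array for the mean of a marker list and for the Notch pathway genes set against it, with transgenic hearts in red and control hearts in blue and symbols for replicates 1, 2 and 3. The endothelial marker mean, Notch4, Jag1 and Dll4 are each lower in all 3 transgenic hearts than in any control, and Hey2 lies above 1 in the transgenic hearts while the cardiomyocyte marker mean lies near 0 in both groups.

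The rest of the pathway was read from lists of 63 further genes, of which 60 were analysed here. Of these 60, 4 rose and 9 fell, 21.7% against the 11.1% of all genes, with a median of -0.06. With the dimmest genes, a share of 0.333, left out, 13 of 56 passed, against 3019 of the 14787 genes kept. These lists were chosen with earlier results of these data known. The count of 13 became 5 with control 1 left out, 6 with control 2, 3 with transgenic 1, 4 with transgenic 2 and 7 with transgenic 3. Lfng, Adam17 and Fbxw7 were called whichever array was left out.

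Among genes upstream of the cut, none of the other 6 ligands passed in limma or had an unadjusted p under 0.05. Dner, a ligand-like protein of neurons, had -0.31 (limma adjusted p = 0.1986) and Dlk2, which resembles Delta but is not a classical ligand, had -0.25 (0.3058). Lfng, the lunatic fringe glycosyltransferase that adjusts which ligands a receptor answers to, fell to 7.71 ± 0.18 in transgenic hearts, against 8.34 ± 0.093 in control hearts (SD, n = 3 each), a change of -0.63 (limma adjusted p = 0.008881). Its relative Mfng had -0.33 (0.08296) and Rfng -0.13 (0.4611).
Adam17, a metalloprotease that can make the first cut, fell to 7.15 ± 0.035 in transgenic hearts, against 7.75 ± 0.17 in control hearts (SD, n = 3 each), a change of -0.60 (limma adjusted p = 0.008309). Adam10, the main protease for ligand-driven cleavage, had -0.05 (interval -0.24 to 0.13). Of the gamma-secretase genes, Aph1a had 0.25 (0.09656) and Ncstn -0.16 (0.2982), and neither passed.

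In the nuclear complex, Rbpj had -0.07 (limma adjusted p = 0.7816). Maml3, a Mastermind coactivator, rose by 0.53 and Kat2b, an acetyltransferase, fell by 0.40. Maml1 had -0.11 (0.5677) and Ep300, another acetyltransferase, 0.17 (0.2283). Of 9 corepressor genes 5 passed, 2 higher and 3 lower. With limma adjusted p-values from 0.01121 to 0.03884, Tle2 rose by 0.51 and Ctbp2 by 0.34, while Tle3 fell by 0.46, Tle1 fell by 0.44 and Ctbp1 fell by 0.38, so that members of both the Groucho (Tle) and the CtBP families changed in opposite directions. Kdm5a, a histone demethylase, had 0.26 (0.1006) and Tle4 -0.31 (0.1128).
These calls depended on single arrays. Maml3 missed the threshold without transgenic 1 or transgenic 2 (adjusted p up to 0.0561), Tle3 without transgenic 1 (0.0519), and Ctbp1 without any of controls 1 and 2 and transgenic hearts 1 and 2 (up to 0.0912). Kat2b (up to 0.0895) and Tle2 (up to 0.0994) passed only without control 3, Tle1 (up to 0.115) passed only without control 2, and Ctbp2 passed in none of the 6 (0.056 to 0.132).

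Among genes of trafficking and turnover, Fbxw7, the ubiquitin ligase subunit that marks the Notch intracellular part for degradation, fell to 7.53 ± 0.12 in transgenic hearts, against 8.07 ± 0.093 in control hearts (SD, n = 3 each), a change of -0.54 (limma adjusted p = 0.009759). Numbl, related to the Notch inhibitor Numb, rose by 0.38 (0.02311), and passed only without control 3 when single arrays were left out (up to 0.0897). Aak1, a kinase that acts on Numb and endocytosis, had 0.29 (0.08894) and Dtx1, a Deltex regulator, -0.17 (0.271).
Of 13 other target genes, Efnb2 fell, as given above, and Gata2, an endothelial and blood transcription factor, fell by 0.41 (0.03161), a call kept only without control 3 (up to 0.119). Nrarp, a direct target that feeds back on the pathway, had -0.02 (0.9614). Bhlhe40 had -0.31 (0.1344) and Hes3 -0.17 (0.3491).

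**Figure D4:**
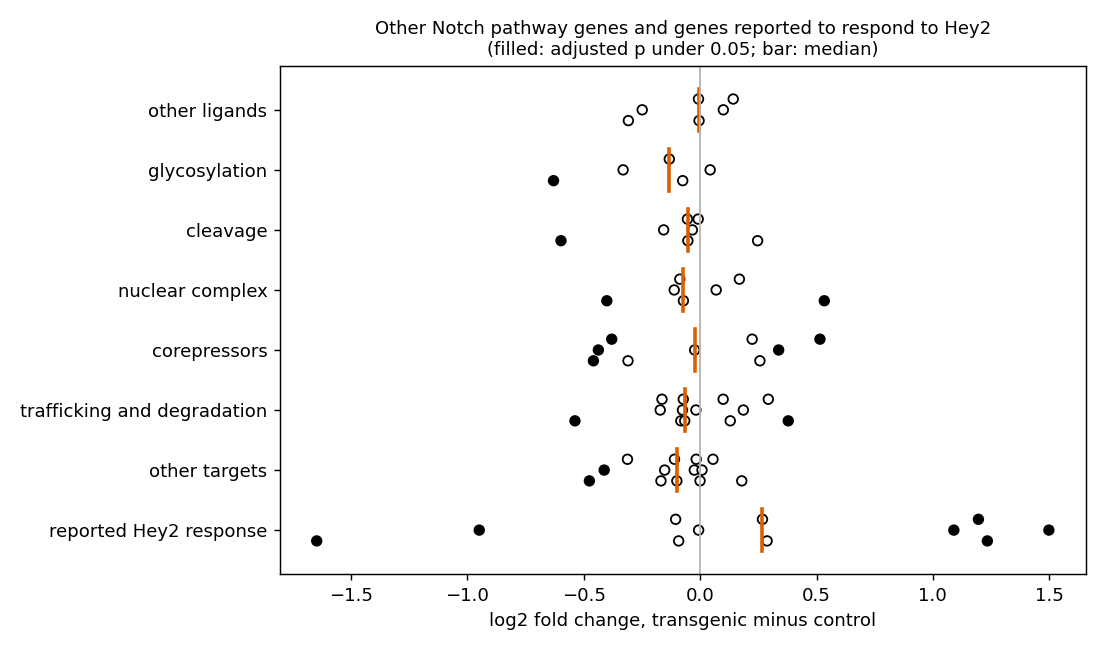
Log2 fold change, transgenic minus control (x axis), of each further Notch pathway gene and of genes reported to respond to Hey2, by list (y axis). Filled points passed an adjusted p of 0.05 and the bar is the median of a list. The pathway lists have medians from -0.13 to -0.01, and the Hey2 list has filled points on both sides, from Kcnd2 at -1.65 to Myl7 at 1.50.

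Genes reported in mouse hearts to respond to the loss or gain of Hey2 were listed as well, since Hey2 holds down atrial genes in the ventricle. Of 11 analysed, 4 rose and 2 fell, 54.5% against the 11.1% of all genes. With the dimmest genes, a share of 0.333, left out, 8 of 10 passed, against 3019 of the 14787 genes kept. The list was chosen with earlier results of these data known. The atrial genes Myl7, an atrial myosin light chain, Sln, which encodes the calcium pump inhibitor sarcolipin, Nppa, atrial natriuretic peptide, and Myl4, another atrial light chain, rose by 1.50, 1.23, 1.20 and 1.09 on the log2 scale. Hey2 rose in the same hearts, although it is described as holding such genes down. What links these changes was not tested. Beyond these 4, the reported directions of the listed genes, Kcnd2 and Kcnip2 included, were not compared. The spread within groups was widest for Myl7, at 10.69 ± 0.60 in transgenic hearts and 9.19 ± 0.78 in control hearts (SD, n = 3 each, limma adjusted p = 0.04155), and its call was lost without control 2, transgenic 2 or transgenic 3 (up to 0.137). The Sln call was lost without transgenic 2 (0.0504). Kcnd2 and its partner Kcnip2, subunits of the transient outward potassium current, fell by 1.65 and by 0.95. Gata6 had 0.29 (0.06626), Gata4 0.27 (0.07222), and Tbx5, an atrial and left ventricular factor, -0.01 (0.9731). Bmp10 had -0.11 (0.7385) and Mycn -0.09 (0.6066). Whether the amount of atrial tissue differed between the samples was not tested.

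The genes whose array-by-array pattern lay nearest to each changed member were found by the largest gap over the 6 arrays, each gene taken relative to its own control mean. For Hey2 they were Unc13c, a synaptic vesicle priming factor, within 0.18 log2 units, Fbn2, the microfibril protein fibrillin 2, within 0.31, and Ncam1, a cell adhesion molecule, within 0.33. Hey1 was nearest to Bcs1l, an assembly factor of respiratory complex III, within 0.077, then to Spr and Rflnb within 0.097 and 0.11. Dll4 was nearest to Ogfod1, Fam20b and Ctdnep1, all within 0.061, and Notch2 to Col1a1, Stag3 and Kdm5b, all within 0.034.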

How the data were processed

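Total RNA of 6 heart samples, 3 transgenic and 3 control, was hybridised to 1 Affymetrix array each. The authors deposited log2 expression values, and per the submitters' processing notes oligo, RMA and limma were used, with no versions given. The background correction, probe filter and detection calls are not stated in the material used here, and the array medians lay between 5.45 and 5.54. Of 41345 probes, 23521 had 1 gene symbol in the platform annotation, 1814 several and 16010 none. Only probes with 1 symbol were named, and the brightest was used per gene, which left 22180 genes. Levels of different probes were not compared.

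The 2 groups entered 1 linear model per gene in limma 3.58.1 (R 4.3.3; lmFit, then eBayes, without covariates, 4 residual degrees of freedom), with Benjamini-Hochberg adjustment over all genes, no filter on dim probes and a threshold of 0.05. The fit was tested on simulated data. Differences within an array were compared with exact permutation tests over samples. Precision is limited by the number of arrays. The text names the 10 genes, every gene of the pathway lists that passed and up to 2 others per list by smallest p, up to 4 markers per cell type, and the 3 nearest patterns per changed member. Adam10, Rbpj, Nrarp, Tbx5, Myh6, Tnnt2, Cspg4, Smtn, Mcam, Gja5, Vegfc and Nrp1 were added after their values were seen. So were Tagln, Lmod1, Myh11, Abcc9, Bmp10 and Mycn. The members and lists were chosen with earlier results of these data known. Some listed genes were not analysed here. Alternatives changed the filter, probe choice, normalization, variance model, array weights, a replicate block, a sex term read from Xist and Y-linked genes, and each array in turn.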

Additional observations from a re-analysis of the deposited data

How the results depend on the processing

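All 10 genes kept the sign of their change in all 15 alternative analyses. In part of these the sign could not turn. The filter, the probe choice, the intensity trend with robust variance and the replicate block left each gene's change as it was. The number called, 4 in the reported analysis, ranged from 1 to 4 when 1 array was left out. The other pathway genes called ranged from 3 to 12 around a reported 13, and all genes called from 1171 to 2249 around 2465. The calls at the threshold were those of Notch2, lost also with quantile normalization (adjusted p = 0.0735), centred arrays (0.0931) and the sex term (0.0925), and of Dll4 and Hey1, lost without either of 2 control or 2 transgenic arrays. Fewer arrays leave fewer residual degrees of freedom. The sex read from Xist and Y-linked genes was not evenly split between the groups, so the sex term moved the changes, that of Hes1 from -0.26 to -0.36. With this term 3 of the 10 genes, 11 of the other pathway genes, 9 of the 22 endothelial markers and 1878 of all genes were called. Over all genes the replicate numbers gave no sign of a pairing (correlations of same-numbered deviations 0.016, -0.13 and 0.014). Such correlations cannot exclude a pairing that affects only some genes. The fit with the replicate block called 2 of the 10 genes, with Notch2 (adjusted p = 0.087) and Dll4 (0.0621) lost. It called 10 of the other pathway genes and 1996 of all genes. With the median of the marker levels in place of their mean, the relative change was 0.28 for Notch3 and 0.42 for Heyl. That median rests on different genes in different arrays. In control 1 it lay between Vtn at 8.73 and Mcam at 8.89, and in transgenic 1 between Vtn at 7.34 and Kcnj8 at 8.73. Vtn fell by 1.18, while the median of the changes of the 14 markers was -0.28. Without 1 array the within-array differences ranged from 2.21 to 2.69 for Hey2 minus Hey1, from 1.76 to 2.10 for Hey2 minus Heyl and from 1.77 to 2.22 for Hey2 minus Hes1. Those relative to the marker means ranged from -0.072 to 0.0072 for Dll4 and from -0.0085 to 0.092 for Notch3, the only ones whose sign turned. The others ranged from 0.032 to 0.113 for Jag1, 0.064 to 0.136 for Notch4 and -0.391 to -0.215 for Hey1. For Heyl the range was 0.127 to 0.239, for Notch1 0.212 to 0.266 and for Hey2 1.599 to 1.933. Without detection calls, values near background could not be marked.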

Other observations

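A further probe that the annotation assigns to both Dll4 and Gm14207, a neighbouring gene that overlaps Dll4, was not used for Dll4. Its log2 values were 5.54, 5.75 and 5.57 in transgenic hearts, against 5.86, 5.66 and 5.87 in control hearts, and the groups overlapped.

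Among the transgenic hearts, replicate 3 had the lowest Hey2 value and the highest Notch2, Notch3, Notch4, Dll4 and Hey1 values, and its endothelial marker mean of 8.90 was also the highest of the 3. For the called gene Notch2 this replicate was thus the farthest from the control hearts, while for Hey2, Hey1 and Dll4 it was the nearest. Notch1, Jag1 and Heyl were highest in replicate 2 and Hes1 in replicate 1. Its mean over the 5 probes of the microRNA cluster, 7.88, was the lowest of the 3, against 8.34 and 8.07 in replicates 1 and 2, while control hearts had 3.08 to 3.31. With 3 hearts this is a description only.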
